A study of Mus musculus with 8 samples.

Results

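The 41 type I interferon-stimulated genes described here are a list of gene symbols, taken by name with earlier results of these data known. All 41 were found among the 24421 genes of the count table. The study asked how Padi4, which encodes the arginine-citrullinating enzyme PAD4 and is expressed mainly in neutrophils, affects the response of neutrophils to Toll-like receptor 7 (TLR7). Neutrophils were isolated magnetically from the bone marrow of 8-week-old female C57BL/6 mice, either wild type (WT) or Padi4-/- (Padi4 KO, made by deleting exon 1 of Padi4). The cells were left unstimulated or given R848, a synthetic small molecule that activates TLR7, at 1 µg/ml for 6 h, and the mRNA of 2 libraries in each of the 4 groups was sequenced. The paper's methods state that samples were analysed in duplicate, and neither they nor the labels say whether the 2 libraries of a group came from separate mice. The p-values therefore measure the spread between these libraries, which may be technical and may not cover the spread between mice. The titles mark the unstimulated libraries as 0 h although the protocol describes 6 h with or without R848, and if the titles hold, each R848 response also includes 6 h of culture.

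Type I interferons bind a receptor made of IFNAR1 and IFNAR2, whose kinases JAK1 and TYK2 phosphorylate STAT proteins such as STAT2. Phosphorylated STAT proteins join IRF9 in the ISGF3 complex, which binds the interferon-stimulated response element (ISRE) of many genes. The products of these genes sense foreign nucleic acids, block viral entry, translation and replication, and feed back on the pathway. TLR7 recognises single-stranded RNA in endosomes and signals through MyD88 to NF-kB, MAP kinases and IRF factors, and interferon-stimulated genes are raised in blood cells in lupus, the disease that the study modelled.

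The libraries held between 562446 and 1177972 counts on genes, so a floor of 3 counts stood at 2.55 to 5.33 CPM, the gene counts of a library scaled to a common total. Sums of marker genes were taken as CPM of the library total. The 11 neutrophil markers, S100a8 and S100a9 among them, summed to 160127 to 165758 CPM in unstimulated and 151846 to 164296 in R848-treated WT. In Padi4 KO they summed to 130413 to 132007 and 123095 to 123885, with 10 of the 11 lower than in WT without stimulation (14.4% of all genes) and 9 of the 11 after R848 (7.81% of all). Erythroid markers were higher in Padi4 KO, with 87.1 to 87.4 and 19.4 to 22.9 CPM in WT and 874 to 896 and 1104 to 1129 in Padi4 KO. Of the 14 erythroid genes 8 had counts, and the 6 hemoglobin genes were listed at 0. Monocyte and macrophage markers, all 10 of them with counts, summed to 1044 to 1085 CPM in unstimulated and 6058 to 6156 in R848-treated WT, and to 1898 to 1935 and 5752 to 5929 in Padi4 KO. Of the 10, 6 were higher in Padi4 KO without stimulation (9.55% of all), and 4 were higher (9.46% of all) and 2 lower (7.81% of all) after R848. The list moved in both directions after R848 in WT. Adgre1, Mpeg1, Csf1r and Cx3cr1 rose, with log2 fold changes of 5.96, 2.82, 2.72 and 2.36. Ccr2, F13a1 and Klf4 fell, with -1.03, -1.7 and -2.49. Plasmacytoid dendritic cells, the cells best known for making interferon after TLR7, left at most 10.6 CPM over their 8 markers, of which Klk1, Cox6a2 and Pacsin1 were at 0, and B cell markers summed to at most 16.8 and T and NK cell markers to at most 16 CPM. The part of these markers in the results below was not tested, and in bulk RNA, fewer cells of a type and less RNA per cell cannot be told apart. Padi4 itself measured 912 and 910 CPM in unstimulated and 338 and 414 in R848-treated WT, against 45.2 and 39.2 and 30.2 and 19.3 in Padi4 KO, a log2 fold change of -4.45 ± 0.13 (edgeR adjusted p = 1.21e-253) without stimulation.

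The promoters of these genes carried the ISRE core, the motif that ISGF3 binds, more often than promoters in general. It was searched as GAAA, any 2 bases and GAAA, on both strands, in the 300 bases from 250 before to 50 after each start site of the RefSeq promoters (GRCm38.p6), which held 32 of the 41 genes. The core was present in 14 of the 32 genes (43.8%), against 3.99% of the 27025 mouse genes searched in the same way. The gamma-activated site, TTC and GAA spaced by any 3 bases, was present in 9 of the 32 (28.1%), against 9.55% of all genes. A match is a description of the letters in this window, not proof of a site, and overlapping matches were merged in the display. The 7 stretches that follow are shown 5′ to 3′ on the strand of the gene, with the matched letters in capitals and 10 bases on each side, or fewer where the start site is closer, as for Oas1a. They are those of genes whose levels the results turn on (Isg15 with 3 overlapping matches, Ifit1, Oas1a, Rsad2 and Ifitm2) and of Stat2 and Bst2, which with Trim30a carry the core and did not pass the test for the R848 response in WT.
Isg15: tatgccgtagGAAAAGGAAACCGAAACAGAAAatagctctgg
Ifit1: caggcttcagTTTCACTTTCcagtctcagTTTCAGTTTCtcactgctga
Oas1a: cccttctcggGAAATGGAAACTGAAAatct
Rsad2: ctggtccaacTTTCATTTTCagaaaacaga
Ifitm2: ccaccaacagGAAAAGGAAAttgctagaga
Stat2: cgcaccctggTTTCAGTTTCctttccctag
Bst2: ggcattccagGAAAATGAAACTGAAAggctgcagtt

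The stretches lie at chr4:156200865-156200906 on the minus strand for Isg15, chr19:34640775-34640823 on the plus strand for Ifit1, chr5:120907526-120907555 on the minus strand for Oas1a, chr12:26456553-26456582 on the minus strand for Rsad2, chr7:140955988-140956017 on the minus strand for Ifitm2, chr10:128270266-128270295 on the plus strand for Stat2 and chr8:71537577-71537612 on the minus strand for Bst2. The capitals of Isg15 and Oas1a run over repeated GAAA units, while those of Ifit1 mark a pair of cores on the opposite strand, written as TTTC. Among the 14 genes with the core, 11 rose after R848 in WT, and among the 17 tested genes without it in the window, 9 rose.

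The test was edgeR's quasi-likelihood test over the 12254 genes that had counts in 2 or more libraries, and 40 of the 41 genes were among them. Ifi44, a cytoplasmic antiviral gene, had 1 count in 1 library and was not tested, and Mx1 and Mx2 averaged under 10 counts. In the rest of the text, levels are CPM scaled by the TMM factors, given for replicate 1 and then replicate 2, and changes are log2 fold changes ± SE with 2 libraries a group. Adjusted p-values are those of the Benjamini-Hochberg method over the 12254 genes. A response to R848 was called where it exceeded 2-fold and its adjusted p was below 0.1, and "rose", "fell", "higher" and "lower" are used at an adjusted p below 0.1.

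By edgeR, most interferon-stimulated genes rose after R848 in WT neutrophils, and fewer rose in Padi4 KO neutrophils. In WT, 24 of the 40 rose at an adjusted p below 0.1 (13.5% of all genes tested) and 1 fell (16% of all), and 14 rose more than 2-fold and were called (7.17% of all) with none called lower by edgeR or DESeq2 (10.8% of all, and 2 of the 40 at an unadjusted p below 0.05 by edgeR). In Padi4 KO, 18 rose (19.2% of all) and 7 fell (15.9% of all), with 6 called higher (8.07% of all) and 3 called lower (8.84% of all). The median log2 change of the 40 genes was 0.76 in WT, where the median of all genes was -0.17, and 0.20 in Padi4 KO, where it was -0.03. Scaling by library size alone moved the median of all genes to -0.47 in WT and -0.41 in Padi4 KO. The distance of the 40 genes from it was 0.93 in WT and 0.23 in Padi4 KO under both scalings. A change of scaling moves all genes of a comparison by nearly the same amount, so this distance is no test of the scaling. With library size alone the calls came to 9 higher and 1 lower in WT and 2 higher and 5 lower in Padi4 KO. Of all genes, 5.14% were then called higher and 17.2% lower in WT, and 5.09% and 16.9% in Padi4 KO. At an adjusted p below 0.1, DESeq2 gave 20 of the 40 that rose and 1 that fell in WT, and 12 and 6 in Padi4 KO. The shares of all genes under DESeq2 are not given here. Beside single genes below, a call means an adjusted p below 0.1, whatever the fold.

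The same 6 genes were called higher in both genotypes, namely Isg15, Usp18, Oasl1, Rsad2, Parp14 and Ifitm2, and 17 rose at an adjusted p below 0.1 in both. Another 8 were called in WT alone (Herc6, Ifit1, Eif2ak2, Adar, Isg20, Parp9, Rtp4 and Ifi35), of which 5 also rose in Padi4 KO by less than 2-fold, and none was called higher in Padi4 KO alone. The genes called lower in Padi4 KO were Mx1, Zbp1 and Cmpk2. Neither response passed the test for 8 genes: Irf1, Stat2, Trim30a, Ifit2, Oas2, Mx2, Dhx58 and Xaf1. Under every alternative setting tried, 16 of the 24 that rose in WT and 9 of the 18 that rose in Padi4 KO passed again.

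**Figure D1:**
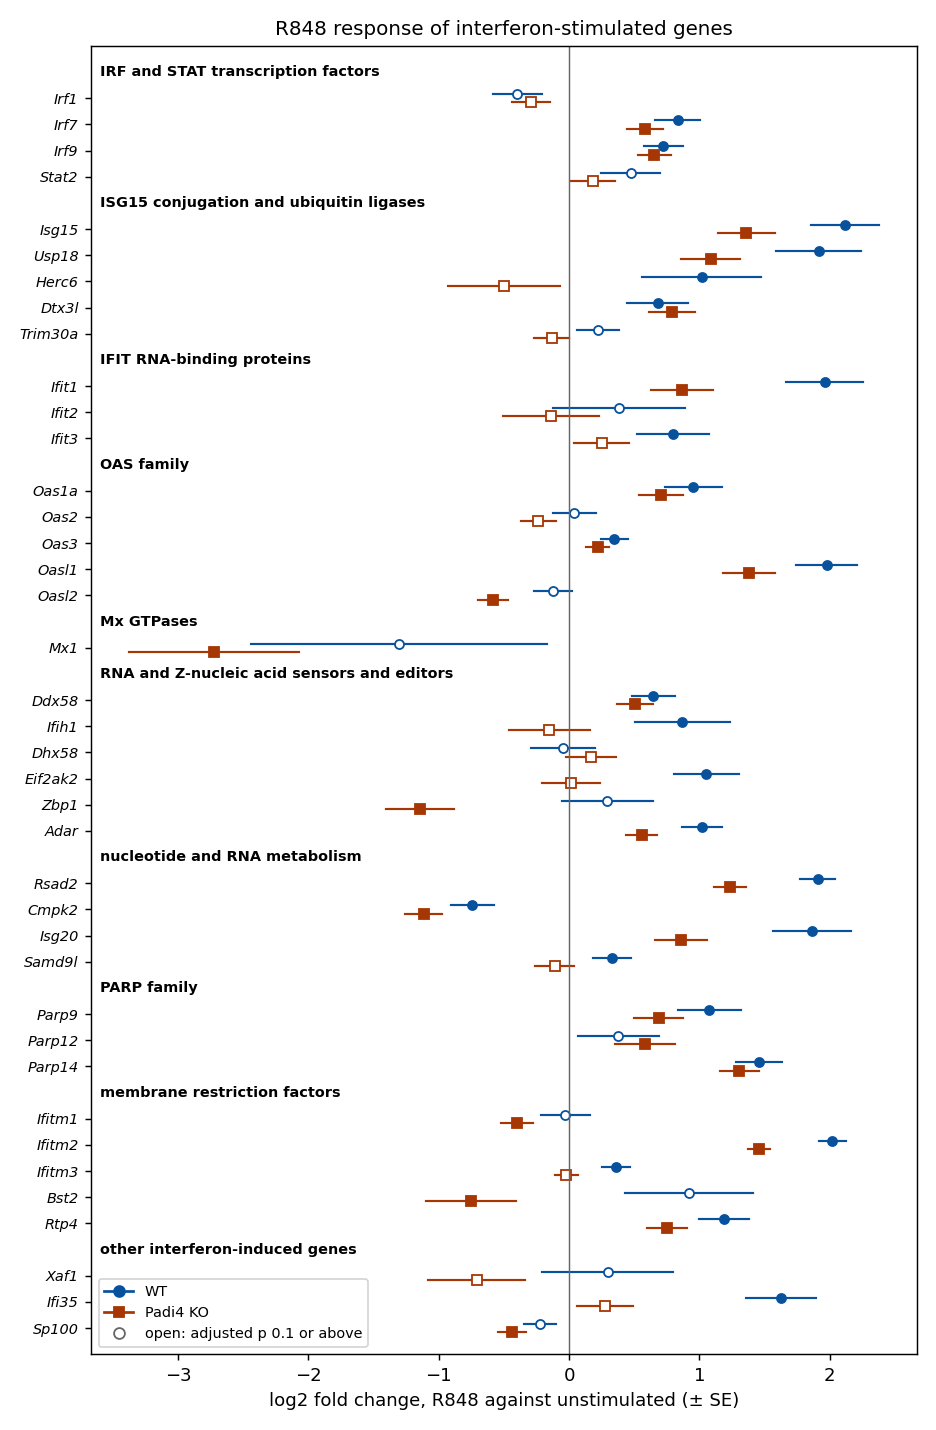
Log2 fold change after R848 (x axis, ± SE, 2 libraries a group) of 39 interferon-stimulated genes (y axis, grouped by role) in WT (blue circles) and Padi4 KO (brown squares), with open symbols where the adjusted p was 0.1 or above, and Mx2 and Ifi44 are left out for their low counts. Isg15, Ifitm2, Oasl1, Ifit1, Usp18 and Rsad2 rose by over 1.9 log2 units in WT, and most brown squares lie to the left of the blue circles.

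The difference between the responses (Padi4 KO minus WT) was tested directly. It was negative for 36 of the 40 genes, with a median of -0.45 where the median of all genes was 0.20, and 5 genes passed the test, each with a smaller rise or a fall in Padi4 KO (1.26% of all genes): Eif2ak2, Zbp1, Rsad2, Ifitm2 and Ifi35. None passed in the other direction by edgeR (3.45% of all genes) or DESeq2, also at an unadjusted p below 0.05, at which edgeR gave 16 negative values. The number that passed depended on the processing, from 1 with DESeq2, which gave only 22 of the 40 an adjusted p, to 13 with counts thinned to the smallest library and 11 with relative log expression factors. With scaling by library size alone 8 passed, all negative (1.39% of all genes), and none was positive (2.08% of all). It was 17 without replicate 2 of R848-treated WT, 11 without replicate 1 of R848-treated Padi4 KO, 9 without replicate 1 of R848-treated WT, and 3 without either replicate of unstimulated WT or without replicate 1 of unstimulated Padi4 KO. Apart from scaling by library size alone, the shares of all genes under these settings are not given here, so these counts cannot be set against them. The distance of the median of the 40 genes from that of all genes was -0.65 here, and -0.56 to -0.80 with 1 library left out. Of the 5 genes, Ifitm2 alone passed in all 15 alternatives, with -0.85 without replicate 2 of R848-treated WT.

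The genes that differed between Padi4 KO and WT were mostly lower in Padi4 KO after R848, and the counts before stimulation moved with the scaling, as those of all genes did. Without stimulation, 3 of the 40 were higher in Padi4 KO (Isg20, Ifitm1 and Ifitm2, against 9.55% of all genes) and 3 were lower (Cmpk2, Samd9l and Sp100, against 14.4%), with a median of -0.02 and a median of -0.03 over all genes. After R848, 22 of the 40 were lower in Padi4 KO (7.81% of all genes) and none was higher by edgeR or DESeq2 (9.46% of all, and 1 of the 40 at an unadjusted p below 0.05 by edgeR), and 38 of the 40 had a negative value. Of the 22, 10 passed in all 16 alternatives, and DESeq2 called 14 lower. The median after R848 was -0.43, where that of all genes was 0.08. With scaling by library size alone the medians of all genes were 0.22 without stimulation and 0.30 after R848, 11 genes were higher (15.5% of all) and 1 was lower (4.58% of all) in unstimulated Padi4 KO, and 12 were lower (3.4% of all) and 1 was higher (15.3% of all) after R848. The distance of the 40 genes from the median of all genes was 0.02 with TMM factors and 0.05 without them in the unstimulated groups, and -0.51 under both scalings after R848. This distance, too, is nearly fixed under a change of scaling and does not test it. The genotype values share the R848-treated WT libraries with the WT response, and the unstimulated groups with both responses. The sum of all 41 genes was 4039 and 3972 CPM in unstimulated WT, 6956 and 6377 in R848-treated WT, 3966 and 3885 in unstimulated Padi4 KO and 4872 and 5210 in R848-treated Padi4 KO. As CPM of the library total, without TMM factors, the sums were 4080 and 4091, 5592 and 5388, 4878 and 4856, and 4657 and 5002 in the same order, so that the sums rose under both scalings in WT, by less without TMM factors, and in Padi4 KO only with them. The lower neutrophil and higher erythroid marker sums of Padi4 KO were present in both treatments, but the erythroid sums lay further apart after R848. They were 87.1 to 87.4 CPM in WT and 874 to 896 in Padi4 KO without stimulation, and 19.4 to 22.9 and 1104 to 1129 after R848. The monocyte and macrophage sum was larger in Padi4 KO without stimulation (1898 to 1935 against 1044 to 1085) and smaller after R848 (5752 to 5929 against 6058 to 6156). The part of these sums in the genotype values was not tested.

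**Figure D2:**
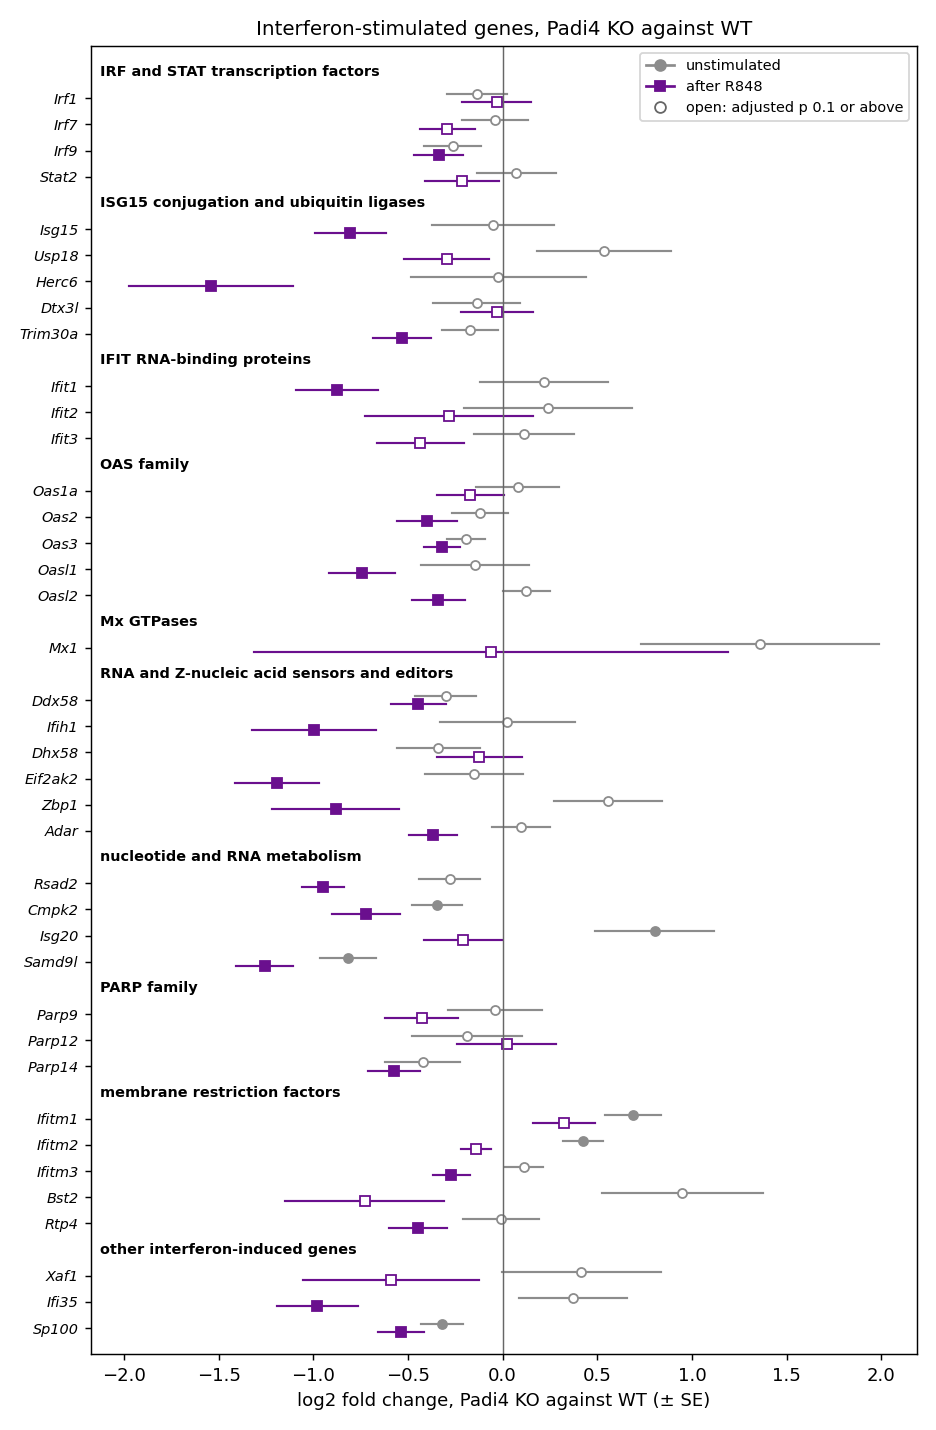
Log2 fold change of Padi4 KO against WT (x axis, ± SE, 2 libraries a group) of 39 interferon-stimulated genes (y axis, grouped by role) without stimulation (grey circles) and after R848 (purple squares), with open symbols where the adjusted p was 0.1 or above. The grey circles lie on both sides of 0, with a median of -0.02 over the 40 genes tested, and the purple squares lie mostly below 0, with a median of -0.43.

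Of the 83 member values past an adjusted p of 0.1 in any comparison, scaling by library size alone ended 27 and DESeq2 ended 23, while the libraries without which a value no longer passed are named beside each gene. Scaling by library size alone ended the WT response of Herc6, Dtx3l, Ifit3, Oas3, Ddx58, Ifih1, Samd9l and Ifitm3, the Padi4 KO response of Irf7, Oas1a, Oas3, Ddx58, Adar, Parp9 and Parp12, the genotype value without stimulation of Cmpk2 and Sp100, and the genotype value after R848 of Irf9, Trim30a, Oas2, Oas3, Oasl2, Ddx58, Zbp1, Adar, Ifitm3 and Rtp4. DESeq2 ended the WT response of Herc6, Ifit3, Ifih1 and Samd9l, the Padi4 KO response of Irf7, Ifit1, Oas3, Ddx58, Parp9, Parp12 and Bst2, the difference of Rsad2, the genotype value without stimulation of Cmpk2, Isg20 and Sp100, and the genotype value after R848 of Irf9, Herc6, Oas2, Oasl2, Ifih1, Zbp1, Adar and Rtp4. Thinned counts ended the WT response of Herc6, the Padi4 KO response of Irf7, Ifit1, Oas3 and Parp12, the genotype value without stimulation of Sp100, and the genotype value after R848 of Herc6 and Oas2.

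Leaving out 1 library moved 16 values that passed further from 0 by over 1.5 times, on the log2 scale. Leaving out replicate 2 of R848-treated WT moved the WT response of Herc6 from 1.02 to 1.58, and the difference of Rsad2 from -0.67 to -1.13 and Ifitm2 from -0.56 to -0.85, and the genotype value after R848 of Oas2 from -0.40 to -0.64, Oasl2 from -0.34 to -0.56, Ddx58 from -0.44 to -0.68 and Adar from -0.37 to -0.59. Leaving out replicate 1 of R848-treated WT moved the WT response of Oas3 from 0.35 to 0.54, and the genotype value after R848 of Oas3 from -0.32 to -0.52 and Ifitm3 from -0.27 to -0.42. Leaving out replicate 2 of unstimulated WT moved the WT response of Ifih1 from 0.87 to 1.32 and Samd9l from 0.33 to 0.52. Leaving out replicate 2 of unstimulated Padi4 KO moved the Padi4 KO response of Bst2 from -0.75 to -1.21. Leaving out replicate 2 of R848-treated Padi4 KO moved the genotype value after R848 of Irf9 from -0.34 to -0.63, Trim30a from -0.53 to -0.83, Oas2 from -0.40 to -0.65, Oas3 from -0.32 to -0.52 and Adar from -0.37 to -0.59. Leaving out replicate 1 of R848-treated Padi4 KO moved the genotype value after R848 of Oasl2 from -0.34 to -0.51 and Zbp1 from -0.88 to -1.35.

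Compared per kilobase of exon, membrane proteins of the IFITM family led, although after R848 in WT this held only for Ifitm2 and Ifitm3. In unstimulated WT the order was Ifitm3 (620 and 517 CPM per kilobase), Ifitm2 (439 and 409), Ifitm1 (97.5 and 112), Oas3 (92 and 95.5) and Sp100 (83 and 94.5), of which Ifitm3 stood above Ifitm2, and Oas3 and Sp100 overlapped. Exons of Ifitm2 overlap those of Gm45717 on the same strand, so their reads cannot be told apart there, and the same holds for Parp14 with Gm49730, Rtp4 with Gm45338 and Herc6 with Gm45193. After R848, Ifitm2 led in WT with 1798 and 1654 CPM per kilobase, above Ifitm3 with 727 and 739. Isg15 followed with 148 and 152 CPM per kilobase, and Rsad2 (141 and 102) overlapped with Oas3 (114 and 124) and Ifitm1 (114 and 92.2). In R848-treated Padi4 KO the order was Ifitm2 (1573 and 1555), Ifitm3 (615 and 602), Ifitm1 (130 and 126), Oas3 (89 and 102) and Isg15 (75.2 and 97.3), of which the last pair overlapped.

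Among the transcription factors, Irf7 and Irf9 rose in both genotypes, and Irf1 and Stat2 passed in neither response here but did under other settings. Irf7, the factor that amplifies interferon production, measured 108 and 93.2 CPM in unstimulated and 208 and 156 in R848-treated WT. In Padi4 KO, Irf7 measured 90.4 and 104 CPM without stimulation and 148 and 146 after R848 (raw counts of 54 to 167). Its R848-treated libraries lay above the unstimulated ones in both genotypes, with responses of 0.83 ± 0.17 (edgeR adjusted p = 1.64e-05) in WT and 0.58 ± 0.14 (edgeR adjusted p = 0.000165) in Padi4 KO. Irf9, the DNA-binding part of ISGF3, measured 148 and 140 CPM in unstimulated and 234 and 243 in R848-treated WT. In Padi4 KO, Irf9 measured 130 and 113 CPM without stimulation and 165 and 213 after R848 (raw counts of 81 to 232). It rose by 0.72 ± 0.15 (edgeR adjusted p = 1.57e-05) in WT and 0.65 ± 0.13 (edgeR adjusted p = 2.01e-06) in Padi4 KO, and after R848 it was lower in Padi4 KO, at a log2 fold change of Padi4 KO against WT of -0.34 ± 0.13 (edgeR adjusted p = 0.0633), a call that was lost without replicate 2 of R848-treated WT or replicate 1 of R848-treated Padi4 KO. Without replicate 2 of R848-treated Padi4 KO the rise there was 0.33 and no longer passed (adjusted p = 0.126). The exons of Irf9 overlap those of Rnf31 on the same strand, so their reads cannot be told apart there. Irf1, an early factor that binds many of the same promoters, had 38 to 162 raw counts, and its values were -0.40 ± 0.19 (edgeR adjusted p = 0.118) in WT and -0.29 ± 0.14 (edgeR adjusted p = 0.118) in Padi4 KO. Its fall in Padi4 KO passed in 8 alternatives, with relative log expression factors (adjusted p = 0.0335) and without either replicate of R848-treated WT among them, and that in WT passed in 4. The WT value of Irf1 was -0.01 without replicate 1 of R848-treated WT and -0.64 without its replicate 2. Leaving out replicate 1 of unstimulated WT gave -0.17, and leaving out its replicate 2 gave -0.58. Stat2 had 28 to 88 raw counts and a mean level of 62.8 ± 20.5 CPM (SD, n = 2) in unstimulated and 89.4 ± 26.3 in R848-treated WT, with 0.47 ± 0.23 (edgeR adjusted p = 0.123), which passed in 7 alternatives. The value was 0.87 without replicate 1 of unstimulated or replicate 2 of R848-treated WT. It was 0.19 without replicate 2 of unstimulated WT and 0.29 without replicate 1 of R848-treated WT.

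Isg15 and its protease Usp18 were among the genes with the largest rises. Isg15, a ubiquitin-like protein that is attached to other proteins, measured 35.6 and 15.5 CPM in unstimulated and 112 and 115 in R848-treated WT. In Padi4 KO, Isg15 measured 29.4 and 22.5 CPM without stimulation and 56.9 and 73.5 after R848 (raw counts of 9 to 80). The 4 R848-treated libraries lay above the 4 unstimulated ones, and the WT and Padi4 KO groups overlapped without stimulation and stood apart after R848. It rose by 2.12 ± 0.26 (edgeR adjusted p = 1.54e-14) in WT and 1.36 ± 0.22 (edgeR adjusted p = 7.38e-09) in Padi4 KO, the difference of -0.76 ± 0.37 (edgeR adjusted p = 0.342) did not pass, and after R848 Isg15 was lower in Padi4 KO, at -0.80 ± 0.19 (edgeR adjusted p = 0.000355). Usp18, which removes ISG15 from proteins and restrains the interferon receptor, had 10 to 64 raw counts and rose by 1.92 ± 0.33 (edgeR adjusted p = 5.32e-08) in WT and 1.09 ± 0.23 (edgeR adjusted p = 1.44e-05) in Padi4 KO.

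The ligases of this group moved less uniformly. Herc6, the main ISG15 ligase of the mouse, measured 15.5 and 10.4 CPM in unstimulated and 36.7 and 17.7 in R848-treated WT. In Padi4 KO, Herc6 measured 18.1 and 9.43 CPM without stimulation and 8 and 10.1 after R848, from 6 to 18 raw counts. Its response in WT was 1.02 ± 0.46 (edgeR adjusted p = 0.0907) and that in Padi4 KO -0.50 ± 0.43 (edgeR adjusted p = 0.42), and after R848 it was lower in Padi4 KO, at -1.54 ± 0.43 (edgeR adjusted p = 0.00489). Without replicate 1 of R848-treated WT, the higher of the pair, both calls were lost, at 0.57 (adjusted p = 0.598) for the response and -1.10 (adjusted p = 0.274) for the genotypes. The WT call was lost in 7 alternatives, those without either replicate of unstimulated WT and with DESeq2 among them, and the genotype call also with DESeq2 and with thinned counts. Dtx3l, a ubiquitin ligase that works with PARP9, measured 60.3 and 50.1 CPM in unstimulated and 77.4 and 99.1 in R848-treated WT. In Padi4 KO, Dtx3l measured 53.1 and 48.6 CPM without stimulation and 85.3 and 89.1 after R848 (raw counts of 29 to 97). It rose in both genotypes, by 0.68 ± 0.23 (edgeR adjusted p = 0.0176) in WT and 0.79 ± 0.18 (edgeR adjusted p = 6e-05) in Padi4 KO, and the WT call was lost without replicate 2 of either WT group or with scaling by library size alone (adjusted p of 0.153 to 0.238). Dtx3l and Parp9 overlap at their exons on opposite strands, and whether the counting used strand is not stated. Irf1, Usp18, Oasl1, Dhx58, Eif2ak2, Adar and Ifi35 also overlap an exon of another gene on the opposite strand. Trim30a, a TRIM-family ubiquitin ligase with closely related copies beside it, measured 148 and 145 CPM in unstimulated and 188 and 158 in R848-treated WT. In Padi4 KO, Trim30a measured 129 and 131 CPM without stimulation and 103 and 135 after R848 (raw counts of 84 to 181). It passed in neither response but was lower in Padi4 KO after R848, at -0.53 ± 0.15 (edgeR adjusted p = 0.00618).

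The IFIT proteins bind the ends of foreign RNA and block its translation. Ifit1 measured 18.6 and 25.9 CPM in unstimulated and 99.9 and 74.4 in R848-treated WT. In Padi4 KO, Ifit1 measured 30.5 and 22.5 CPM without stimulation and 51.5 and 42.3 after R848 (raw counts of 12 to 58). R848-treated libraries were above unstimulated ones in both genotypes, and those of WT were above those of Padi4 KO. The rise was 1.96 ± 0.29 (edgeR adjusted p = 3.51e-10) in WT and 0.87 ± 0.24 (edgeR adjusted p = 0.0014) in Padi4 KO, and after R848 Padi4 KO was lower, at -0.88 ± 0.22 (edgeR adjusted p = 0.000902). The rise in Padi4 KO was lost without replicate 2 of unstimulated Padi4 KO (0.62, adjusted p = 0.136) or replicate 1 of R848-treated Padi4 KO (0.57, adjusted p = 0.166), with DESeq2 and with thinned counts (0.33). The difference of -1.09 ± 0.40 (edgeR adjusted p = 0.112) missed the threshold here and passed in 8 alternatives (adjusted p of 0.0124 to 0.0927), without replicate 2 of R848-treated WT among them (-1.53). Ifit3 measured 35.6 and 39.7 CPM in unstimulated and 63.2 and 67.3 in R848-treated WT. In Padi4 KO, Ifit3 measured 37.3 and 42.8 CPM without stimulation and 37.3 and 59.7 after R848 (raw counts of 23 to 65). It rose in WT by 0.80 ± 0.28 (edgeR adjusted p = 0.0185), a call lost without replicate 1 of unstimulated WT, and its value in Padi4 KO was 0.25 ± 0.21 (edgeR adjusted p = 0.413), where the groups overlapped. Ifit3 has a near-identical copy in the mouse genome, so its counts are uncertain. Ifit2 had 8 to 24 raw counts and passed in no comparison.

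The OAS family makes oligoadenylates that activate RNase L, and its members ranged from a clear rise (Oasl1) to a fall in Padi4 KO (Oasl2). Oasl1, a member without synthetase activity that restrains IRF7 translation, measured 34 and 34.5 CPM in unstimulated and 120 and 149 in R848-treated WT. In Padi4 KO, Oasl1 measured 30.5 and 31.2 CPM without stimulation and 70.2 and 91.9 after R848 (raw counts of 20 to 100). All R848-treated libraries exceeded the unstimulated ones, and both WT libraries exceeded both Padi4 KO libraries after R848. The rise was 1.98 ± 0.24 (edgeR adjusted p = 1.42e-15) in WT and 1.38 ± 0.20 (edgeR adjusted p = 7.39e-11) in Padi4 KO, the difference was -0.60 ± 0.33 (edgeR adjusted p = 0.44), and after R848 Padi4 KO was lower, at -0.74 ± 0.17 (edgeR adjusted p = 0.000327). Oas3 measured 434 and 451 CPM in unstimulated and 536 and 586 in R848-treated WT. In Padi4 KO, Oas3 measured 396 and 380 CPM without stimulation and 420 and 481 after R848 (raw counts of 261 to 523). It rose in WT by 0.35 ± 0.10 (edgeR adjusted p = 0.00504) and was lower in Padi4 KO after R848, at -0.32 ± 0.10 (edgeR adjusted p = 0.0094), while its rise in Padi4 KO, 0.22 ± 0.09 (edgeR adjusted p = 0.0514), was lost in 11 of its alternatives. Among these it turned negative with scaling by library size alone and without replicate 2 of R848-treated Padi4 KO, it was 0.08 and 0.09 without replicate 1 and 2 of R848-treated WT, and it was 0.17 to 0.24 without replicate 1 of R848-treated or either replicate of unstimulated Padi4 KO.

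Oasl2 did not follow Oasl1, its neighbour on chromosome 5. It measured 199 and 224 CPM in unstimulated and 214 and 177 in R848-treated WT. In Padi4 KO, Oasl2 measured 227 and 233 CPM without stimulation and 160 and 147 after R848 (raw counts of 100 to 321). The WT groups overlapped and did not pass, and in Padi4 KO it fell by 0.59 ± 0.12 (edgeR adjusted p = 3.63e-06). After R848 it was lower in Padi4 KO, at -0.34 ± 0.14 (edgeR adjusted p = 0.0905), a call lost without replicate 1 of R848-treated WT, replicate 2 of R848-treated Padi4 KO or either replicate of unstimulated Padi4 KO. Oas2 measured 138 and 162 CPM in unstimulated and 171 and 138 in R848-treated WT. In Padi4 KO, Oas2 measured 148 and 130 CPM without stimulation and 105 and 129 after R848 (raw counts of 78 to 179). It passed in neither response and was lower in Padi4 KO after R848, at -0.40 ± 0.16 (edgeR adjusted p = 0.0729), which was lost without replicate 1 of either R848-treated group. Oas1a, one of several near-identical Oas1 copies and so uncertain in its counts, had 35 to 121 raw counts and rose by 0.95 ± 0.22 (edgeR adjusted p = 0.000136) in WT and 0.70 ± 0.17 (edgeR adjusted p = 0.000147) in Padi4 KO, the latter lost without replicate 1 of R848-treated Padi4 KO (0.42, adjusted p = 0.142).

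The Mx GTPases, inactive in most laboratory strains, had few counts. Mx1 had 2 and 4 raw counts in unstimulated WT, 1 and 1 in R848-treated WT, 9 and 20 in unstimulated Padi4 KO and 2 and 2 in R848-treated Padi4 KO. Its level after R848 in Padi4 KO was 0.141 of that before (95% exact interval of the counts 0.0359 to 0.401, for counting error only), from 4 against 29 counts, and the ratio in WT was 0.387 (0.0382 to 2.17), from 2 against 6 counts. The fall in Padi4 KO was called (edgeR adjusted p = 0.000193). Mx2 had 0 and 0, 2 and 0, 3 and 2, and 1 and 1 raw counts in the same order, too few for a fold change, and without it the medians of the other 39 genes were 0.73 in WT and 0.22 in Padi4 KO.

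Sensors and editors of nucleic acids held 2 of the 5 genes whose responses differed between genotypes. Eif2ak2 encodes PKR, the kinase that stops translation when it binds double-stranded RNA. It measured 43.3 and 43.2 CPM in unstimulated and 81.5 and 97.4 in R848-treated WT. In Padi4 KO, Eif2ak2 measured 40.7 and 37.7 CPM without stimulation and 35.5 and 43.2 after R848 (raw counts of 25 to 55). The R848-treated WT libraries stood above the other 6, which overlapped. The response was 1.05 ± 0.25 (edgeR adjusted p = 0.000163) in WT and 0.01 ± 0.22 (edgeR adjusted p = 0.998) in Padi4 KO, and the difference was -1.04 ± 0.34 (edgeR adjusted p = 0.0563). After R848 Padi4 KO was lower, at -1.19 ± 0.22 (edgeR adjusted p = 2.4e-06), and this call passed in all 16 alternatives, while that of the difference was lost, at adjusted p of 0.117 to 0.165, without any one of the 4 unstimulated libraries.

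Zbp1, a sensor of Z-form nucleic acids that can start necroptosis, measured 26.3 and 31.1 CPM in unstimulated and 32.6 and 37.2 in R848-treated WT. In Padi4 KO, Zbp1 measured 52 and 35.6 CPM without stimulation and 23.1 and 14.7 after R848 (raw counts of 16 to 49). In Padi4 KO both treated libraries lay below both unstimulated ones, and in WT they lay slightly above. It fell in Padi4 KO by 1.14 ± 0.26 (edgeR adjusted p = 0.000102) and its value in WT was 0.29 ± 0.35 (edgeR adjusted p = 0.58). The difference of -1.44 ± 0.44 (edgeR adjusted p = 0.0379) passed, but not without replicate 1 of unstimulated WT, replicate 1 of unstimulated Padi4 KO or replicate 2 of R848-treated Padi4 KO (adjusted p of 0.132 to 0.18). After R848 Padi4 KO was lower, at -0.88 ± 0.34 (edgeR adjusted p = 0.0591), which was lost without replicate 2 of either R848-treated group.

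Ddx58 and Ifih1 encode RIG-I and MDA5, the helicases that detect viral RNA in the cytosol. Ddx58 measured 128 and 121 CPM in unstimulated and 218 and 175 in R848-treated WT. In Padi4 KO, Ddx58 measured 103 and 100 CPM without stimulation and 147 and 140 after R848 (raw counts of 70 to 166). It rose by 0.65 ± 0.16 (edgeR adjusted p = 0.000573) in WT and 0.50 ± 0.14 (edgeR adjusted p = 0.0014) in Padi4 KO and was lower in Padi4 KO after R848, at -0.44 ± 0.14 (edgeR adjusted p = 0.0181), lost without replicate 1 of R848-treated WT. The rise in Padi4 KO was lost without replicate 1 of R848-treated Padi4 KO (0.32, adjusted p = 0.184). Ifih1 measured 15.5 and 27.6 CPM in unstimulated and 48.9 and 30.1 in R848-treated WT. In Padi4 KO, Ifih1 measured 15.8 and 25.4 CPM without stimulation and 16 and 23 after R848 (raw counts of 10 to 35). It rose in WT by 0.87 ± 0.36 (edgeR adjusted p = 0.0652) and its value in Padi4 KO was -0.15 ± 0.31 (edgeR adjusted p = 0.772), and after R848 Padi4 KO was lower, at -0.99 ± 0.33 (edgeR adjusted p = 0.0217). Both calls of Ifih1 were lost without replicate 1 of R848-treated WT, the rise also without replicate 1 of unstimulated WT (0.49) and the genotype call without replicate 1 of R848-treated Padi4 KO. Dhx58, the regulator LGP2, had 24 to 70 raw counts and passed in no comparison.

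Adar edits adenosine to inosine in double-stranded RNA and so keeps self RNA from being sensed. It measured 130 and 126 CPM in unstimulated and 287 and 235 in R848-treated WT. In Padi4 KO, Adar measured 135 and 139 CPM without stimulation and 184 and 220 after R848 (raw counts of 73 to 239). All treated libraries exceeded all unstimulated ones. It rose by 1.02 ± 0.15 (edgeR adjusted p = 3.13e-10) in WT and 0.56 ± 0.12 (edgeR adjusted p = 3.26e-05) in Padi4 KO, the latter not without replicate 2 of R848-treated Padi4 KO (0.30, adjusted p = 0.158). Padi4 KO was lower after R848, at -0.37 ± 0.13 (edgeR adjusted p = 0.0298), lost without replicate 1 of either R848-treated group.

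Rsad2 and Cmpk2, neighbours on chromosome 12 that read in opposite directions, moved in opposite directions after R848. Rsad2 encodes viperin, which makes a chain-terminating nucleotide, and measured 121 and 123 CPM in unstimulated and 534 and 386 in R848-treated WT. In Padi4 KO, Rsad2 measured 81.4 and 113 CPM without stimulation and 228 and 244 after R848 (raw counts of 71 to 266). The treated groups stood above the untreated ones in each genotype, and after R848 WT stood above Padi4 KO. Rsad2 rose by 1.91 ± 0.14 (edgeR adjusted p = 5.4e-42) in WT and 1.24 ± 0.12 (edgeR adjusted p = 1.01e-21) in Padi4 KO. The difference of -0.67 ± 0.19 (edgeR adjusted p = 0.0239) passed, with a lost call without replicate 2 of unstimulated Padi4 KO (-0.38, adjusted p = 0.6) or replicate 1 of unstimulated WT (adjusted p = 0.124), and after R848 Padi4 KO was lower, at -0.95 ± 0.11 (edgeR adjusted p = 4.41e-16) in every alternative. Cmpk2, a mitochondrial nucleotide kinase, measured 223 and 185 CPM in unstimulated and 141 and 106 in R848-treated WT. In Padi4 KO, Cmpk2 measured 170 and 155 CPM without stimulation and 66.6 and 81.8 after R848 (raw counts of 60 to 213). The treated libraries were the lower ones in both genotypes, with responses of -0.74 ± 0.16 (edgeR adjusted p = 5.42e-05) in WT, lost without replicate 2 of R848-treated WT (-0.44), and -1.12 ± 0.14 (edgeR adjusted p = 1.54e-13) in Padi4 KO. Padi4 KO was lower without stimulation, at -0.35 ± 0.13 (edgeR adjusted p = 0.0485) and after R848, at -0.72 ± 0.18 (edgeR adjusted p = 0.00106), and the former was lost without replicate 1 of unstimulated WT, replicate 2 of unstimulated Padi4 KO or any one of the 4 R848-treated libraries (-0.20 to -0.26).

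The ratio of Rsad2 to Cmpk2 counts within a library, which does not depend on the scaling between libraries, was 0.542 and 0.664 in unstimulated WT and 0.48 and 0.732 in unstimulated Padi4 KO. After R848 it was 3.8 and 3.63 in WT and 3.43 and 2.99 in Padi4 KO. The treated libraries therefore held at least 2.99 Rsad2 reads for each Cmpk2 read and the untreated ones at most 0.732. This ratio and those of the IFITM genes were computed after their values had been seen, and they show unequal change of the genes, not which of them changed.

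Isg20, an exonuclease that degrades viral RNA, measured 24.7 and 17.3 CPM in unstimulated and 79.5 and 76.1 in R848-treated WT. In Padi4 KO, Isg20 measured 35 and 38.5 CPM without stimulation and 69.3 and 65.3 after R848 (raw counts of 10 to 78). It was higher in Padi4 KO without stimulation by 0.80 ± 0.31 (edgeR adjusted p = 0.0522), lost without replicate 2 of either unstimulated group, and after R848 the genotypes did not pass the test. It rose by 1.87 ± 0.30 (edgeR adjusted p = 9.61e-09) in WT and 0.86 ± 0.20 (edgeR adjusted p = 0.000123) in Padi4 KO. Samd9l, an antiviral protein that represses translation, was lower in Padi4 KO in both treatments. It measured 156 and 202 CPM in unstimulated and 224 and 223 in R848-treated WT. In Padi4 KO, Samd9l measured 107 and 96.5 CPM without stimulation and 97.7 and 89.1 after R848 (raw counts of 95 to 133). Every Padi4 KO library was below every WT library, with -0.82 ± 0.15 (edgeR adjusted p = 1.18e-06) without stimulation and -1.26 ± 0.15 (edgeR adjusted p = 5.05e-15) after R848, both past the threshold in all 16 alternatives. Its response was 0.33 ± 0.15 (edgeR adjusted p = 0.09) in WT, lost without replicate 1 of unstimulated WT (0.15), and -0.11 ± 0.15 (edgeR adjusted p = 0.63) in Padi4 KO.

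**Figure D3:**
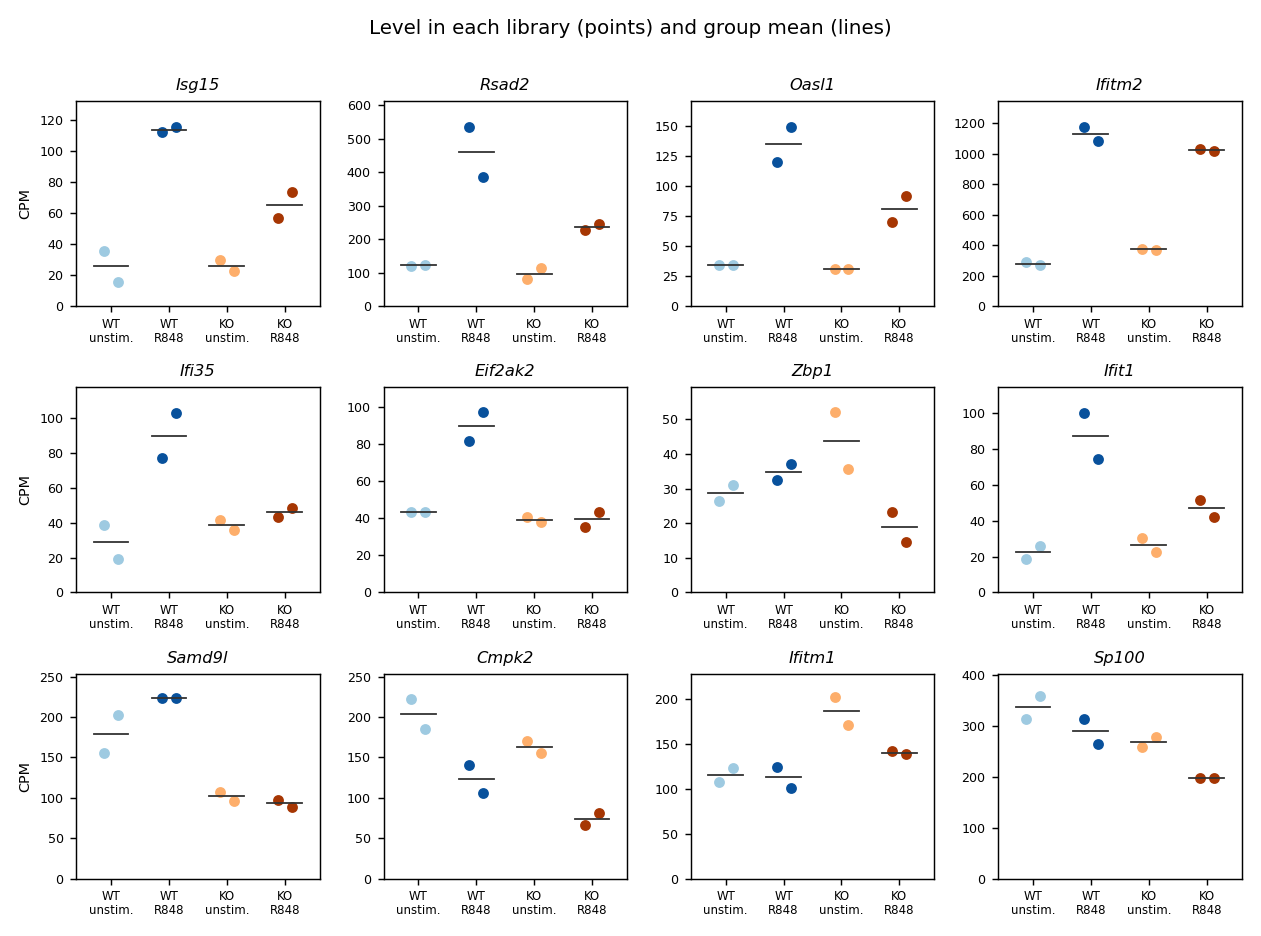
Level (y axis, CPM scaled by TMM factors, starting at 0 in each panel) of 12 interferon-stimulated genes in each of the 8 libraries (points, with group means as lines) by genotype and treatment (x axis). Isg15, Rsad2, Oasl1 and Ifit1 are higher after R848 in both genotypes and highest in R848-treated WT, Eif2ak2 is highest in R848-treated WT, Samd9l is lower in all Padi4 KO libraries, and Cmpk2 is lower after R848 in both genotypes.

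The PARP proteins of this list attach ADP-ribose to other proteins and are part of the antiviral response. Parp14 measured 85 and 79.4 CPM in unstimulated and 238 and 216 in R848-treated WT. In Padi4 KO, Parp14 measured 61.1 and 61.7 CPM without stimulation and 140 and 165 after R848 (raw counts of 46 to 179). Treated libraries were above untreated ones in both genotypes, with rises of 1.46 ± 0.17 (edgeR adjusted p = 9.55e-16) in WT and 1.31 ± 0.15 (edgeR adjusted p = 1.22e-16) in Padi4 KO and a difference of -0.15 ± 0.24 (edgeR adjusted p = 0.877). After R848 Padi4 KO was lower, at -0.57 ± 0.14 (edgeR adjusted p = 0.000526), and the value without stimulation was -0.42 ± 0.20 (edgeR adjusted p = 0.126). Parp9 measured 47.9 and 41.4 CPM in unstimulated and 112 and 79.7 in R848-treated WT. In Padi4 KO, Parp9 measured 37.3 and 47.9 CPM without stimulation and 68.4 and 72.6 after R848 (raw counts of 24 to 79) and rose by 1.08 ± 0.24 (edgeR adjusted p = 7.22e-05) in WT and 0.69 ± 0.19 (edgeR adjusted p = 0.00161) in Padi4 KO, with the overlap with Dtx3l named above. Parp12 had 21 to 56 raw counts, rose in Padi4 KO by 0.59 ± 0.23 (edgeR adjusted p = 0.0395) and had a value of 0.38 ± 0.31 (edgeR adjusted p = 0.436) in WT, and the call was lost without replicate 2 of either Padi4 KO group or either replicate of R848-treated WT (0.25 to 0.57).

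The IFITM proteins sit in membranes and block the fusion of viruses with the cell, and the 3 genes, close together on chromosome 7, responded differently. Ifitm2 measured 288 and 268 CPM in unstimulated and 1178 and 1084 in R848-treated WT. In Padi4 KO, Ifitm2 measured 376 and 370 CPM without stimulation and 1031 and 1018 after R848 (raw counts of 155 to 1160). It rose in every treated library, by 2.02 ± 0.10 (edgeR adjusted p = 1.69e-87) in WT and 1.46 ± 0.08 (edgeR adjusted p = 2.92e-66) in Padi4 KO. The Padi4 KO libraries started higher, by 0.42 ± 0.11 (edgeR adjusted p = 0.00083), and the value after R848 was -0.14 ± 0.08 (edgeR adjusted p = 0.285), and the difference was -0.56 ± 0.13 (edgeR adjusted p = 0.0023). The value after R848 passed in 5 alternatives, from -0.22 to -0.32, with relative log expression factors, with thinned counts and without either replicate of R848-treated WT or replicate 1 of R848-treated Padi4 KO, and it was 0.08 with scaling by library size alone. Ifitm1 measured 107 and 123 CPM in unstimulated and 124 and 101 in R848-treated WT. In Padi4 KO, Ifitm1 measured 202 and 171 CPM without stimulation and 142 and 138 after R848 (raw counts of 57 to 236). It was higher in Padi4 KO without stimulation by 0.69 ± 0.15 (edgeR adjusted p = 5.75e-05), in all 16 alternatives, and fell in Padi4 KO by 0.40 ± 0.12 (edgeR adjusted p = 0.00611) after R848, lost without replicate 1 of unstimulated Padi4 KO, while the WT groups overlapped and did not pass. Ifitm3 measured 421 and 350 CPM in unstimulated and 493 and 501 in R848-treated WT. In Padi4 KO, Ifitm3 measured 419 and 417 CPM without stimulation and 417 and 408 after R848 (raw counts of 203 to 575). It rose in WT by 0.36 ± 0.11 (edgeR adjusted p = 0.00476), lost without replicate 2 of unstimulated WT, its value in Padi4 KO was -0.02 ± 0.09 (edgeR adjusted p = 0.908), and after R848 Padi4 KO was lower, at -0.27 ± 0.10 (edgeR adjusted p = 0.0479).

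Within libraries, the ratio of Ifitm2 to Ifitm1 counts was 2.7 and 2.18 in unstimulated WT, 1.86 and 2.16 in unstimulated Padi4 KO, 9.48 and 10.7 in R848-treated WT and 7.25 and 7.39 in R848-treated Padi4 KO. The ratio of Ifitm2 to Ifitm3 was 0.684 and 0.764 in unstimulated WT, 0.898 and 0.887 in unstimulated Padi4 KO, 2.39 and 2.16 in R848-treated WT and 2.47 and 2.5 in R848-treated Padi4 KO. Both ratios were higher in every treated library than in every untreated one.

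**Figure D4:**
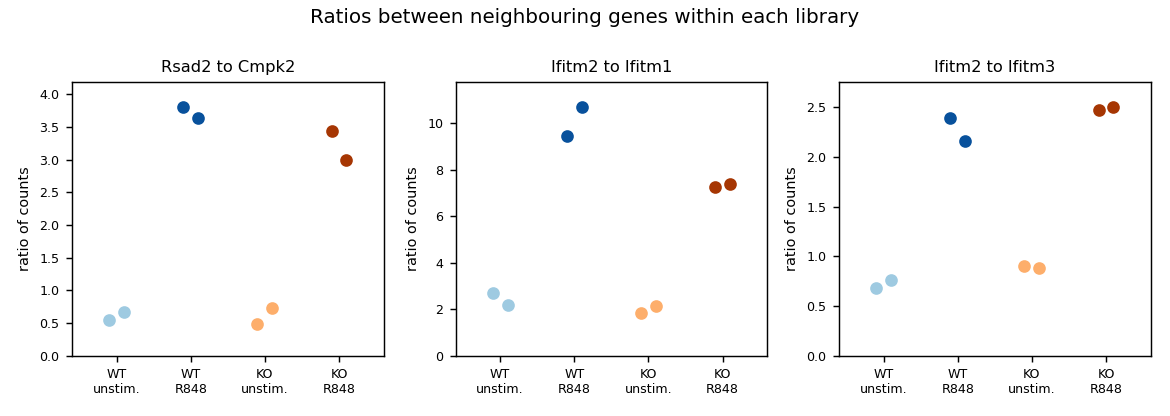
Ratio of raw counts of Rsad2 to Cmpk2, Ifitm2 to Ifitm1 and Ifitm2 to Ifitm3 (y axes, from 0) in each of the 8 libraries (points) by genotype and treatment (x axis). In each panel the treated libraries lie above the untreated ones, with the Rsad2 to Cmpk2 ratio at 2.99 to 3.8 against 0.48 to 0.732.

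Of the other membrane proteins, Rtp4, a chaperone that also binds viral RNA, measured 69.6 and 74.2 CPM in unstimulated and 175 and 154 in R848-treated WT. In Padi4 KO, Rtp4 measured 63.3 and 76.9 CPM without stimulation and 114 and 127 after R848 (raw counts of 43 to 138). It rose by 1.19 ± 0.19 (edgeR adjusted p = 8.72e-09) in WT and 0.75 ± 0.15 (edgeR adjusted p = 9.23e-06) in Padi4 KO and was lower in Padi4 KO after R848, at -0.45 ± 0.15 (edgeR adjusted p = 0.0308). Bst2, or tetherin, which holds budding viruses at the surface, had 7 to 27 raw counts. Its values were 0.92 ± 0.49 (edgeR adjusted p = 0.173) in WT and -0.75 ± 0.34 (edgeR adjusted p = 0.0835) in Padi4 KO, the latter lost without replicate 1 of unstimulated (-0.35) or replicate 2 of R848-treated Padi4 KO (-0.76).

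Ifi35, a leucine-zipper protein induced by interferon, showed one of the largest differences of response. It measured 38.7 and 19 CPM in unstimulated and 77.4 and 103 in R848-treated WT. In Padi4 KO, Ifi35 measured 41.8 and 35.6 CPM without stimulation and 43.5 and 48.7 after R848 (raw counts of 11 to 58). The R848-treated WT libraries stood above the other 6. The response was 1.63 ± 0.27 (edgeR adjusted p = 2.34e-08) in WT and 0.28 ± 0.22 (edgeR adjusted p = 0.372) in Padi4 KO, the difference was -1.35 ± 0.35 (edgeR adjusted p = 0.00813), and after R848 Padi4 KO was lower, at -0.98 ± 0.21 (edgeR adjusted p = 0.000107). The difference was lost without replicate 2 of unstimulated WT, the lower of the pair (-0.96, adjusted p = 0.218). Sp100, a component of PML nuclear bodies, measured 315 and 359 CPM in unstimulated and 314 and 266 in R848-treated WT. In Padi4 KO, Sp100 measured 259 and 278 CPM without stimulation and 199 and 199 after R848 (raw counts of 150 to 383). It fell in Padi4 KO by 0.44 ± 0.11 (edgeR adjusted p = 0.000296), where its treated and untreated libraries stood apart, and in WT it did not pass. Padi4 KO was lower without stimulation, at -0.32 ± 0.11 (edgeR adjusted p = 0.0237) and after R848, at -0.54 ± 0.12 (edgeR adjusted p = 0.000252), and the former was lost without replicate 2 of unstimulated WT, replicate 1 of unstimulated Padi4 KO or any one of the 4 R848-treated libraries (-0.17 to -0.26). Xaf1, a proapoptotic protein that binds the caspase inhibitor XIAP, had 4 to 28 raw counts and passed in no comparison.

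The genes upstream of this programme were read from lists of the pathway. All 16 type I interferon genes, Ifnb1 among them, were listed at 0 in every library, which allows a level of up to 5.33 CPM in the shallowest one if they could be counted. The 6 hemoglobin genes were at 0 as well, although other erythroid markers were present, the annotation used for counting is not given in the sources used here, and, for the nearly identical Ifna genes, reads shared between copies may not have been counted. Of the 34 genes of the other 4 lists, 18 rose (13.5% of all genes) and 3 fell (16% of all) in WT, and 22 rose (19.2% of all) and 2 fell (15.9% of all) in Padi4 KO. In each genotype 11 were called higher and 2 lower, against 7.17% and 10.8% of all genes in WT and 8.07% and 8.84% in Padi4 KO. Without stimulation 2 of the 34 were higher (9.55% of all genes) and 7 lower (14.4% of all) in Padi4 KO, and after R848 none was higher (by edgeR or DESeq2, and none at an unadjusted p below 0.05, against 9.46% of all) and 8 were lower (7.81% of all). The median of the 34 responses was 0.60 in WT and 0.69 in Padi4 KO, against 0.76 and 0.20 for the interferon-stimulated genes.

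The receptor genes rose in both genotypes. Ifnar1 measured 98.9 and 116 CPM in unstimulated and 340 and 329 in R848-treated WT. In Padi4 KO, Ifnar1 measured 82.5 and 94.3 CPM without stimulation and 331 and 308 after R848, with responses of 1.65 ± 0.15 (edgeR adjusted p = 1.65e-26) in WT and 1.83 ± 0.12 (edgeR adjusted p = 1.19e-49) in Padi4 KO. Ifnar2 measured 95.9 and 96.7 CPM in unstimulated and 159 and 138 in R848-treated WT. In Padi4 KO, Ifnar2 measured 97.2 and 92.9 CPM without stimulation and 204 and 144 after R848, with responses of 0.62 ± 0.18 (edgeR adjusted p = 0.00453) and 0.88 ± 0.14 (edgeR adjusted p = 7.26e-10). Socs3, a feedback inhibitor of JAK kinases and the only one of the 34 whose responses differed, measured 47.9 and 39.7 CPM in unstimulated and 212 and 209 in R848-treated WT. In Padi4 KO, Socs3 measured 110 and 92.2 CPM without stimulation and 264 and 225 after R848. It rose by 2.25 ± 0.20 (edgeR adjusted p = 1.96e-27) in WT and 1.30 ± 0.12 (edgeR adjusted p = 9.41e-24) in Padi4 KO, with a difference of -0.95 ± 0.25 (edgeR adjusted p = 0.0091) and a higher level in unstimulated Padi4 KO, 1.17 ± 0.21 (edgeR adjusted p = 6.65e-07).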

How the data were processed

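Neutrophil mRNA was measured in 8 libraries, in 4 groups of 2 taken from the sample labels. The authors trimmed the reads with cutadapt 1.16, mapped them to mm10 with STAR 2.5.3a and counted them on genes with HTSeq 0.6.1p1, per the labels and the methods, and deposited raw counts for each gene symbol. The lines of HTSeq for reads without a gene (8.98% to 11.5%) or on several genes (1.31% to 1.69%) were left out. Annotation and strand setting are not given in the sources used here.

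Counts were tested with edgeR 4.0.16 (limma 3.58.1, R 4.3.3) by the robust quasi-likelihood method, with TMM factors and 1 mean for each group, for the 12254 genes with at least 1 count in at least 2 libraries. The standard error of a log2 fold change is its size over the root of its F value. The biological coefficient of variation was 4.68%. Replicates of a group differed by more than counting noise, with a chi-square per degree of freedom of 1.05 to 1.67. Intervals and floors cover counting error only. CPM were scaled by TMM factors, and floors and marker sums by library totals. The model was tested on simulated counts. Alternatives were DESeq2 1.42.0, other filters, scalings and thresholds, thinned counts, a replicate block, separate fits and leaving out each library.

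Genes and lists, pathway lists included, were chosen with earlier results of these data known. Values in each library are given for every member that passed a test between genotypes or treatments by genotype and for the 2 members of each role group with the highest mean count. Exon lengths and overlaps were taken from GENCODE (GRCm38), and promoters from RefSeq. Ly6g and Ighm were not analysed here. All per-sample columns were used.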

Additional observations from a re-analysis of the deposited data

Results flagged for a closer look

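The response to R848 differed between the genotypes, by the test of the difference itself, for 5 interferon-stimulated genes and for Socs3. The difference, Padi4 KO minus WT on the log2 scale, was -1.04 for Eif2ak2, -1.44 for Zbp1, -0.67 for Rsad2, -0.56 for Ifitm2, -1.35 for Ifi35 and -0.95 for Socs3, a feedback inhibitor of cytokine receptors. Ifitm2 and Socs3 were higher in Padi4 KO before stimulation and did not pass between the genotypes after it, although Ifitm2 passed as lower in 5 alternatives, whereas Eif2ak2, Rsad2, Ifi35 and Zbp1 were lower in Padi4 KO after R848 and did not pass before it. Of the 5, the difference of Ifitm2 alone passed in all 15 alternatives, that of Eif2ak2 was lost without any one of the 4 unstimulated libraries, and that of Rsad2 was -0.38 (edgeR adjusted p = 0.6) without replicate 2 of unstimulated Padi4 KO. Those of Zbp1 and Ifi35 were also lost without 1 library, and the alternatives were not run for Socs3.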

How the results depend on the processing

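The 102 member values printed or past the threshold, 83 of them past it, were recomputed under each alternative, and 8 values changed sign in at least 1 of them. With scaling by library size alone the numbers of members called higher and lower were 9 and 1 in WT and 2 and 5 in Padi4 KO, 8 were lower by the difference of responses, 11 higher and 1 lower in unstimulated Padi4 KO, and 1 higher and 12 lower in Padi4 KO after R848. That scaling also turned the WT response of Zbp1 to -0.008, the Padi4 KO responses of Ifit3 to -0.13, Oas3 to -0.16, Eif2ak2 to -0.36 and Ifi35 to -0.10, and the Padi4 KO against WT value of Ifitm2 after R848 to 0.076. Without a fold threshold 24 rose and 1 fell in WT and 18 rose and 7 fell in Padi4 KO. The difference of responses was past the threshold for 1 member with DESeq2, 9 with the filterByExpr filter, 11 with relative log expression factors and 13 with thinned counts. DESeq2 left 1 member lower in unstimulated and 14 in R848-treated Padi4 KO, and fits of 2 groups at a time gave 8 higher and 1 lower in unstimulated Padi4 KO. Apart from scaling by library size alone, the shares of all genes under the alternatives of this section are not given here. Whether the counts of members moved with those of all genes was therefore not shown. The Padi4 KO response of Eif2ak2, near 0, was -0.074 with DESeq2, -0.045 with filterByExpr, -0.069 with relative log expression factors, -0.26 with thinned counts and -8.2e-05 with separate fits, and that of Herc6 was 0.034 with thinned counts. Leaving out 1 library gave 13 to 18 members called higher and 0 lower in WT, 5 to 7 higher and 2 to 4 lower in Padi4 KO, 3 to 17 lower by the difference, 2 to 8 higher and 1 to 3 lower in unstimulated Padi4 KO and 17 to 24 lower after R848. The Padi4 KO responses then ranged from -0.006 to 0.24 for Oas3, -0.25 to 0.41 for Ifit3, -0.56 to 0.30 for Ifih1 and -0.26 to 0.055 for Eif2ak2. Leaving out 1 library also moved 16 called values further from 0 by over 1.5 times. The differences between replicates 1 and 2 of any 2 groups correlated at -0.02 to 0.02. Much of these differences was counting noise, which brings a correlation near 0. Whether the replicate numbers paired the libraries therefore cannot be told from these values. A fit with the replicate number as a block called 14 higher in WT and 6 higher and 3 lower in Padi4 KO. That fit gave 7 lower by the difference, 4 higher and 3 lower without stimulation and 22 lower after R848. The cause of these changes was not tested. Members with under 10 counts on average, and unstimulated levels of Isg15, Usp18, Ifit1 and Isg20 from as few as 9 to 16 counts in a library, limit the precision of their folds.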
